A study of Mus musculus with 4 samples.

Results

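T and natural killer (NK) lymphocytes of the mouse ovary were examined in single-cell RNA libraries made 4 hours after the last dose of doxorubicin, with and without anti-Müllerian hormone (AMH). The cells were chosen by a rule on their own transcripts. Each had at least 1000 unique molecular identifiers (UMIs, counted RNA molecules) and at most 20% of them mitochondrial. Each had a UMI for at least 2 of Cd3e, Cd3d, Trbc2, Nkg7, Gzma and Klrd1 and for Ptprc, the pan-leukocyte phosphatase CD45. None had a UMI for Csf1r, Cd79a or Fshr, which mark macrophages, B cells and granulosa cells. The rule selected 186 of 30523 cells. Levels of these genes in the selected cells therefore describe the choice and carry no test.

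T cells recognise antigen through a variable receptor (alpha-beta or gamma-delta chains) that signals through the CD3 subunits. CD8 T cells and NK cells kill target cells with perforin and granzymes, CD4 T cells direct other immune cells through cytokines, and NK cells read activating and inhibitory surface receptors rather than a rearranged one. Lymphocytes are a small population of the ovary, where they lie in the stroma and around regressing follicles and corpora lutea. Doxorubicin is an anthracycline that intercalates into DNA and traps topoisomerase II, and AMH is a hormone of growing follicles that signals through its own type 2 receptor and shared BMP type 1 receptors.

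Mice were at the prepubertal age of postnatal day 25. The control group received PBS/saline. The doxorubicin group received 2 weekly doses of 3 mg/kg. Another group received the same doxorubicin doses together with AMH at 0.75 mg/kg, and the last received AMH alone at that dose. The AMH was the recombinant human protein. No strain or genotype is given in the labels. Ovaries of 5 animals, 1 from each, were pooled per group, cut up, digested with papain and collagenase A, dissociated mechanically and filtered, and 1 library was made per group with a 10x Genomics 3' kit. With 1 library per group there is no replicate of a treatment, so no difference between treatments could be tested. Intervals given for single libraries are 95% intervals for counting error only. Values in rows of 4 are in the order control, doxorubicin, doxorubicin+AMH, AMH. The median depth of cells that passed the filters was 13722, 15491.5, 12705 and 11266.5 UMIs. Between 11 and 24 cell barcodes were shared by each pair of libraries, of 7141 to 9478 barcodes per library.

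The promoters of 4 genes are shown as examples of T cell and killer cell genes: Cd3g and Cd3d, CD3 subunits, Nkg7, a protein of cytotoxic granules, and Gzma, granzyme A. Each run is the 250 bases before the RefSeq start (build GRCm38.p6), 5' to 3' on the gene's strand, with the RUNX core TGTGGT or its reverse complement ACCACA in capitals.
Cd3g promoter: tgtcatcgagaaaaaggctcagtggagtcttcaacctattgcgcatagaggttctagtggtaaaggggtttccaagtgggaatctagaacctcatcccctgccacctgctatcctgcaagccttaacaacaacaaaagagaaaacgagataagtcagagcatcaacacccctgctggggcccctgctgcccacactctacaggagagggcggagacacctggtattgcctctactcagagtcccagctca
Cd3d promoter: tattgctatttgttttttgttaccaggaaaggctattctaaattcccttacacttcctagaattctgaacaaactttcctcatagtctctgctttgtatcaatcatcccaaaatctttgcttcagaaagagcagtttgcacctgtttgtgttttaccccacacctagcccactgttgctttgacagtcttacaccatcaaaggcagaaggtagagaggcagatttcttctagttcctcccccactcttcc
Nkg7 promoter: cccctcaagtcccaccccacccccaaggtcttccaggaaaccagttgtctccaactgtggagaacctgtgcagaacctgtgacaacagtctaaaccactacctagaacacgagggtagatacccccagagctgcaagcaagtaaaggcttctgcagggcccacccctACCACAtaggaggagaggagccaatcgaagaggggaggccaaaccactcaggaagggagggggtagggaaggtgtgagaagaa
Gzma promoter: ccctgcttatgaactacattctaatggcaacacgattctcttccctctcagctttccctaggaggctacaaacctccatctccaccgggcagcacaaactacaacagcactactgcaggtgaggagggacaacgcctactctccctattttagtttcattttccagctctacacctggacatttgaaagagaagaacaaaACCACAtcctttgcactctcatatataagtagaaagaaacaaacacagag
The windows are chr9:44980432-44980681 on the minus strand, chr9:44981536-44981785 on the plus strand, chr7:43436888-43437137 on the plus strand and chr13:113100982-113101231 on the minus strand. Cd3g and Cd3d are transcribed away from each other, with 854 bases between their windows. The RUNX core, searched on both strands, occurred in the Nkg7 and Gzma windows and not in those of Cd3g, Cd3d or Cd3e, against 14.2% of 27025 promoters of this length. A match is a run of letters and was not tested as a site.

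Of the genes of the rule, Trbc2, a constant segment of the receptor beta chain, had a UMI in 167 of the 186 cells. Cd3d had one in 157, Nkg7 in 141, Cd3e in 138, Klrd1 in 57 and Gzma in 27. Most cells carried several: 23 had exactly 2 of the 6 genes, 48 had 3, 83 had 4, 27 had 5 and 5 had all 6. Within the limits on depth and mitochondrial share, 222 cells had at least 2 of these genes. Of them 27 were lost for an excluded gene, 18 of these in the AMH library, and 9 for lack of Ptprc. Another 3 cells met the gene conditions but not those limits. Just outside the rule, 76 cells met every other condition but had 1 of the 6 genes. Their median depths of 9325 to 10960 UMIs per library lay above those of the cells with exactly 2 genes in every library but AMH, where these medians were 10390.5 and 18183.5.

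CD3, receptor-chain and NK genes chose the cells, and cells with Csf1r or Cd79a were removed, so these genes do not test the label. Of T cell genes outside the rule, Cd3g, another CD3 subunit, had a UMI in 159 of the 186 cells. Macrophage markers summed to 31, 5, 8 and 14 UMIs with Mrc1 at 0, and no neutrophil marker had a UMI. B cell markers, a list of 8 genes of which 5 were detected, summed to 73, 15, 44 and 118 UMIs, and 2 AMH cells held at least 20 of them. Some droplets, however, held transcripts of ovarian cells as well. A cell with at least 20 UMIs of any list of markers of another cell type was called a mixed droplet, a definition chosen after the data were seen. There were 10, 4, 6 and 13 of them, 33 in all, most often with markers of stroma (19 cells), granulosa (13) or theca (11). The 1 droplet with erythroid markers, in the doxorubicin library, held 10153 UMIs of them, and 1 control cell held 261 UMIs of dendritic cell markers. Mixed droplets had a median of 18555.5, 24112, 26216.5 and 39444 UMIs against 6285, 5846, 5258 and 5035 for the rest. They therefore held 36.3%, 38.9%, 34.6% and 78.3% of the UMIs summed over the lymphocytes of each library, and 23 of the 33 were among the 24 lymphocytes with the highest Scrublet doublet scores. In the AMH library 4 droplets alone held 48.6% of the UMIs. Levels summed over the lymphocytes therefore depend on them, and most are given with and without them.

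**Figure D1:**
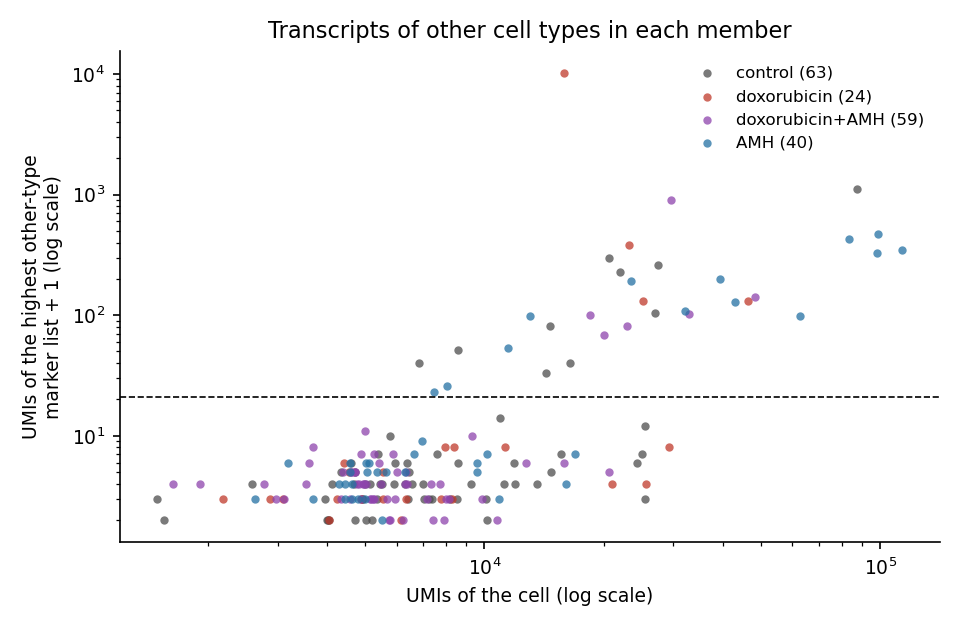
UMIs per cell (log axis) of each lymphocyte against UMIs of markers of other cell types, by library, with mixed droplets marked. Most mixed droplets are deep and the deepest cell, of 113847 UMIs, is one, in the AMH library, but some lie at ordinary depth, down to 6831 UMIs in control and 7475 in AMH.

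Lymphocytes that met the rule made up a smaller share of cells in the doxorubicin and AMH libraries than in the control and doxorubicin+AMH libraries. The shares were 0.734% in control (63 of 8588 cells, 95% Clopper-Pearson interval 0.564% to 0.938%), 0.375% after doxorubicin (24 of 6406, 0.240% to 0.557%), 0.845% after doxorubicin+AMH (59 of 6983, 0.644% to 1.09%) and 0.468% after AMH (40 of 8546, 0.335% to 0.637%). The doxorubicin interval did not overlap those of control and doxorubicin+AMH, and it overlapped that of AMH. The AMH interval overlapped that of control and not that of doxorubicin+AMH. Without mixed droplets the shares were 0.617% (0.463% to 0.806%), 0.312% (0.191% to 0.482%), 0.759% (0.569% to 0.992%) and 0.316% (0.208% to 0.459%). The doxorubicin interval then overlapped that of control and not that of doxorubicin+AMH, and the AMH interval overlapped neither. The shares also depend on the rule. Its excluded genes removed 5 of 70, 0 of 26, 4 of 65 and 18 of 61 cells with at least 2 of its genes, most in AMH. A share of cells depends on how many of every other cell type came out of the dissociation, and fewer lymphocytes cannot be told apart from more of the others. Macrophage-like cells, defined by Ptprc, Csf1r and at least 2 more markers, numbered 127, 49, 49 and 121, and B-like cells numbered 7, 5, 7 and 8.

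**Figure D2:**
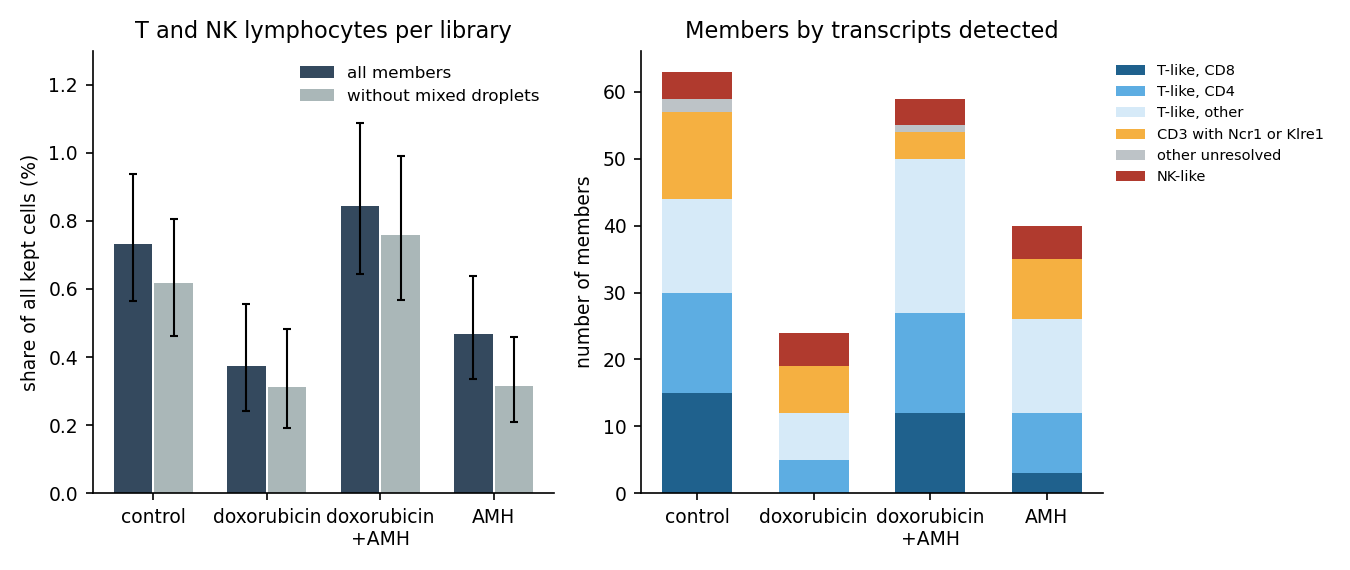
Share of lymphocytes among cells of each library in percent, with 95% Clopper-Pearson intervals, and the make-up of the lymphocytes by T-like, NK-like and other cells. The shares run from 0.375% after doxorubicin to 0.845% after doxorubicin+AMH, with 1 library per group.

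Among the 186 cells, 132 were T-like, with a CD3 subunit, a receptor chain and no Ncr1 or Klre1. Another 18 were NK-like, without Cd3e, Cd3d, Cd3g and Trac and with NK receptors. The remaining 36 met neither gate, and 33 of them carried CD3 and a receptor chain together with Ncr1 or Klre1. T-like cells were 44 of 63, 12 of 24, 50 of 59 and 26 of 40, or 69.8%, 50%, 84.7% and 65.0%. NK-like cells were 4, 5, 4 and 5, or 6.35% (1.76% to 15.5%), 20.8% (7.13% to 42.2%), 6.78% (1.88% to 16.5%) and 12.5% (4.19% to 26.8%), with intervals that all overlap. NK-like cells were thus as numerous in the doxorubicin library as elsewhere, while T-like cells were fewest there. Counting every lymphocyte with Ncr1, Klre1 or Klrb1c, receptors of NK cells and some T cells, gave 31.7%, 54.2%, 15.3% and 42.5%. Of these, the doxorubicin (32.8% to 74.4%) and AMH (27.04% to 59.1%) intervals did not overlap the doxorubicin+AMH interval (7.22% to 26.99%). Without mixed droplets the shares were 28.3%, 45%, 17.0% and 40.7%. The doxorubicin (23.1% to 68.5%) and AMH (22.4% to 61.2%) intervals then overlapped that of doxorubicin+AMH (8.07% to 29.8%). CD3 with Ncr1 or Klre1 in the same cell was seen in 13, 7, 4 and 9 cells.

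No CD8 transcript was detected in the lymphocytes of the doxorubicin library. Cd8a or Cd8b1, which together form the CD8 coreceptor, had a UMI in 16, 0, 14 and 4 lymphocytes. The 0 of 24 allows a share of cells with a UMI of up to 12.5% (3 counts), and its Clopper-Pearson interval reached 14.2%, against 25.4% (15.3% to 37.9%) in control and 23.7% (13.6% to 36.6%) in doxorubicin+AMH. The interval thus overlapped that of doxorubicin+AMH. Without mixed droplets, at 0 of 20, it reached 16.8% and overlapped both control (24.5%, 13.8% to 38.3%) and doxorubicin+AMH (26.4%, 15.3% to 40.3%). The UMIs were 48, 0, 56 and 9 for Cd8a and 62, 0, 113 and 14 for Cd8b1. Cd8a was at least 6.70-fold higher in the control and at least 10.7-fold higher in the doxorubicin+AMH library than in doxorubicin, and Cd8b1 at least 8.66-fold and 21.5-fold. These bounds set the doxorubicin library at 3 UMIs. No single cell made up these sums, since the most in any cell was 13 UMIs for Cd8a and 24 for Cd8b1. Among T-like cells alone the CD8 cells, those with Cd8a or Cd8b1 and no Cd4, were 15 of 44, 0 of 12, 12 of 50 and 3 of 26. With 12 T-like cells the Clopper-Pearson upper bound for doxorubicin was 26.5%, above the control interval's lower end of 20.5%.

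Cd4, the coreceptor of helper T cells, was spread evenly, with a UMI in 15, 5, 16 and 10 lymphocytes, 23.8%, 20.8%, 27.1% and 25.0%. Foxp3, the factor of regulatory T cells, had a UMI in 9, 1, 4 and 4 T-like cells, 10 of which also had Cd4. Trdc, the constant segment of the receptor delta chain, was found in 6, 3, 3 and 8 lymphocytes. T-like cells with Trdc and no Trac numbered 4, 1, 3 and 4. As a background, 0.342% of granulosa-like cells had a Cd8a UMI, 0.270% a Cd8b1 UMI, 2.97% a Cd4 UMI and 0.288% a Foxp3 UMI, although their median depth was 28260 to 32096.5 UMIs per library. Variable segments of the receptor were seen in some cells. A Trbv segment was detected in 31 of 132 T-like cells, 29 of them with a single gene, and 14 different Trbv genes occurred. The most frequent, Trbv12-2, was in 6 cells. None of the 18 NK-like cells had a Trbv or Trav UMI, but 3 of them had a UMI of the delta-chain segment Trdv2-2, against 8 of 132 T-like cells with any Trdv segment. In contrast, 7 of the 33 cells with CD3 and NK receptors had a Trbv, each a different gene. Trgv2, a gamma-chain segment, was in 21 T-like cells and 11 of those 33.

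Genes outside the rule that led the lymphocytes over all other cells were Ccl5 (4242 UMIs in 139 cells), a chemokine of activated T and NK cells, and Cd52 (4989 UMIs in 181 cells), a leukocyte surface glycoprotein. Next came AW112010 (2860 UMIs), Cd3g (1196) and Skap1 (1475), an adaptor of T cell adhesion. Some pairs of genes were often found in the same cell, although Cd3d, Nkg7 and Gzma are genes of the rule, so that pairs with them restate the choice in part. Of the cells with Cd3d or Cd3g, 152 had both, out of 157 and 159. Ccl5 and Nkg7 were found together in 131 cells, of 139 and 141. Of 81 cells with Xcl1, the lymphotactin gene, 77 also had Ccl5. Gzma and Gzmb overlapped less, in 17 cells of 27 and 43.

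T-like and NK-like cells were compared over the 4 libraries as replicates, with UMIs summed per library and subset, edgeR's quasi-likelihood test and the library as a block. NK-like sums rest on 4 or 5 cells each, under the 10 cells first planned. The gate genes were left out, and because both subsets were gated on transcripts, genes that accompany the gate genes had to differ in part. Of 9337 genes, 65 (0.696%) were higher in T-like and 40 (0.428%) in NK-like cells at an adjusted p of 0.05. The median log2 difference of all genes was 0.37.

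NK-like cells were higher in the signalling adaptors Fcer1g, at a log2 T-like/NK-like difference of -5.93 (SE 0.50, edgeR adjusted p = 3.93e-28), and Tyrobp, at -5.67 (SE 0.51, edgeR adjusted p = 2.54e-25). Klri2, an NK lectin-like receptor, had 33 UMIs in NK-like cells and 0 in T-like cells and was at least 91.4-fold higher in NK-like cells. Klrb1b and Klrc1, receptors of the same complex, followed at -4.14 (SE 0.58, edgeR adjusted p = 4.23e-10) and -3.54 (SE 0.75, edgeR adjusted p = 4.70e-04). Prf1, the pore-forming perforin, differed by -4.41 (SE 0.75, edgeR adjusted p = 1.41e-06). The rest of the 10 most different were Styk1, with 1 UMI in T-like cells and 20 in NK-like cells, Aoah, Gm36723 and Car2. Of the 21 NK receptor and factor genes, 14 could be tested, and 11 were higher in NK-like cells and none in T-like cells. The 11 include Klrk1 (NKG2D), Txk and the Ly49 receptors Klra4, Klra7 and Klra9. Reads between near-identical Klra genes may have been split. The chemokines Xcl1 and Ccl4 had log2 T-like/NK-like differences of -2.46 and -2.61.

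T-like cells were higher in genes of the receptor pathway. Themis, a regulator of T cell selection, was at least 13.5-fold higher, the surface receptors Cd5 and Cd6 at least 7.70-fold and 6.46-fold, and Ly6a (Sca-1) at least 15.2-fold, all with 0 UMIs in NK-like cells. Ifi27l2a, an interferon-inducible gene, had 1412 UMIs in T-like cells and 1 in NK-like cells, a log2 difference of 7.41 (4.93 to 12.71 by counting error of the summed UMIs, edgeR adjusted p = 1.35e-21). The costimulatory genes Tnfrsf4 (OX40) and Cd40lg, the folate receptor Izumo1r and Trgv2 were at least 6.18-fold, 4.25-fold, 5.29-fold and 2.53-fold higher. Cd74, the MHC class II chaperone, was also named by the rule, at least 6.74-fold, but 151 of its 168 T-like UMIs came from 1 mixed control droplet, and without mixed droplets it fell below the count filter. Il7r, the interleukin 7 receptor, had 188 UMIs in T-like cells and 1 in NK-like cells, a log2 difference of 4.50 (2.00 to 9.81 by counting error of the summed UMIs, edgeR adjusted p = 1.31e-04). Icos was higher by 3.49 and the inhibitory receptor Ctla4 by 2.81 on the log2 scale. Of 14 tested receptor pathway genes 5 were higher in T-like cells and none in NK-like cells, and of 10 coreceptor and helper genes 5 and none. No gene of the p53, DNA damage, doxorubicin transport, tissue residence or dissociation stress lists passed (21, 18, 9, 11 and 19 tested). Since only 0.696% and 0.428% of all genes passed, these counts lie near that share and do not show that the subsets are alike. The counts depended on the processing: they were 3 and 6 with edgeR's own count filter, 14 and 26 with DESeq2, 11 and 13 without the library block, and 27 and 34 without the control library.

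**Figure D3:**
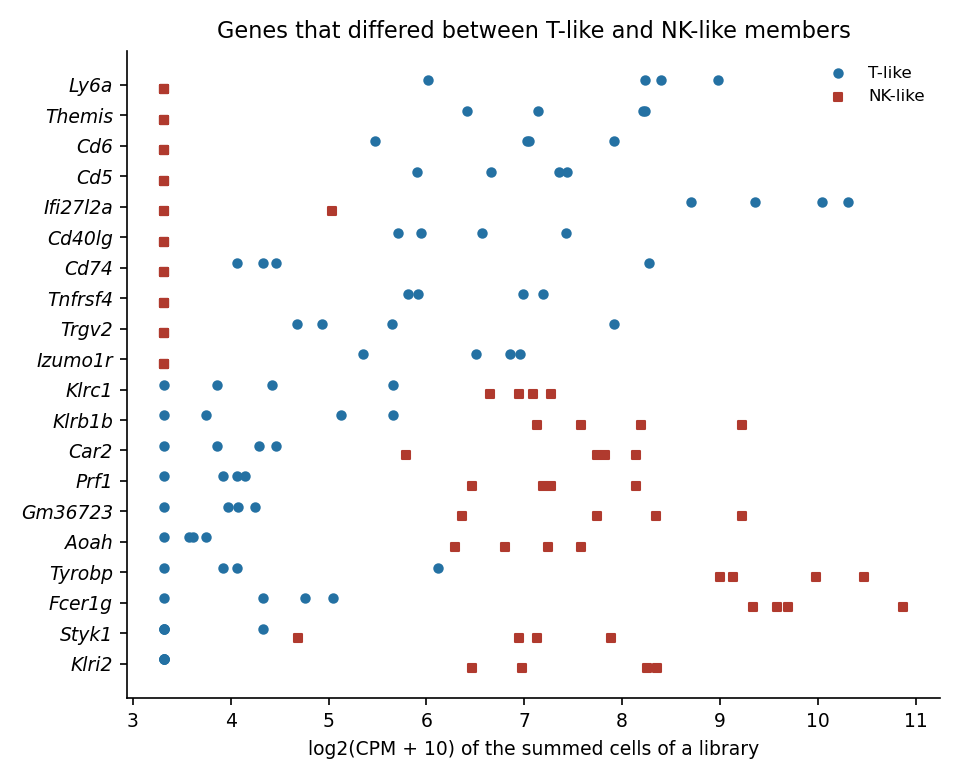
Level of the named genes, as log2(CPM + 10), in T-like cells (circles) and NK-like cells (squares), 1 point for each of the 4 libraries and summed over the cells of a library. The 10 upper genes were higher in T-like cells and the 10 lower ones, from Klrc1 to Klri2, in NK-like cells.

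Against macrophage-like cells of the same libraries, 1000 of 12984 genes (7.7%) were higher in the lymphocytes and 1548 (11.9%) lower, with a median log2 difference over all genes of 0.03. Both classes were gated on transcripts and the gate genes were left out, so genes that accompany the gate genes had to differ in part. Genes higher in lymphocytes with 0 UMIs in macrophage-like cells were Gm2682 (at least 490.5-fold), the interleukin 2 receptor beta chain Il2rb (at least 421-fold), the granule protease Ctsw (at least 269-fold) and the adhesion receptor Cd2 (at least 215-fold). Xcl1, with 1 macrophage UMI, was higher by 10.70 (8.22 to 16.01 by counting error of the summed UMIs, edgeR adjusted p = 2.69e-06) on the log2 scale. In the other direction Lyz2, lysozyme, differed by -10.66 (SE 0.29, edgeR adjusted p = 1.01e-06) and the platelet factor gene Pf4 by -11.25 (-16.55 to -8.77 by counting error of the summed UMIs, edgeR adjusted p = 2.74e-06). The chemokine Ccl12, the complement receptor C3ar1 and Il1b had no UMI in lymphocytes and were at least 369-fold, 209-fold and 209.9-fold lower.

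Of genes by which cells handle doxorubicin and its damage, some passed the same test against macrophages, where 7.7% of all genes were higher and 11.9% lower. In the list of transport and target genes 3 of 10 were higher and 2 lower. Abcb1a, a P-glycoprotein drug pump, was higher in lymphocytes than in macrophages by 3.77 (SE 0.46, edgeR adjusted p = 5.50e-04), and its paralogue Abcb1b by 1.51 (SE 0.25, edgeR adjusted p = 0.00294). Top2a, the topoisomerase of dividing cells and a target of the drug, was higher by 1.07 (SE 0.20, edgeR adjusted p = 0.00669). The carbonyl reductase Cbr3 and the aldo-keto reductase Akr1b3 were lower, at -1.51 (SE 0.44, edgeR adjusted p = 0.0421) and -0.80 (SE 0.19, edgeR adjusted p = 0.0201). Of 17 death and survival genes 2 were higher and 4 lower. Bcl2, the survival factor, was higher by 2.20 (SE 0.27, edgeR adjusted p = 5.76e-04), as was Bik, a BH3-only protein, whereas Mcl1 and Bcl2l1, other survival factors, were lower at -1.44 (SE 0.20, edgeR adjusted p = 0.00111) and -1.14 (SE 0.27, edgeR adjusted p = 0.0176). Cflar and Bcl2a1b were lower too. Of 22 DNA damage genes 3 were higher and none lower. Xrcc5 and Xrcc6 (the Ku proteins of end joining) and the histone H2afx were the 3, at log2 1.57, 1.15 and 1.25. Of 28 p53 targets 6 were lower in lymphocytes and none higher: Bax, Gdf15, Mdm2, Plk2, Cdkn1a and Pmaip1. Without mixed droplets 9 were lower and 4 higher, the latter Ddb2, Trp53inp1, Tnfrsf10b and Tap1. Mixed droplets were called among the lymphocytes only, so such counts kept every macrophage-like cell. Of 23 interferon response genes 12 were lower and none higher, and without mixed droplets 12 were lower and 3 higher, Gbp7 and Igtp among them. Of 28 S and G2/M phase genes 15 were higher and none lower. The counts over all genes were 1931 and 2969 without mixed droplets. They were 561 and 992 without the control library, 566 and 1161 without doxorubicin, and 537 and 1066 without doxorubicin+AMH.

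Against B-like cells, 749 of 13074 genes (5.73%) were higher in the lymphocytes and 199 (1.52%) lower. These classes too were gated on transcripts, and genes that accompany the gate genes, which were left out, had to differ in part. B-like sums rest on 5 to 8 cells per library, also under the planned minimum, and the median log2 difference of all genes was 0.85, so differences are best read against that shift. The counts and their balance depended on the processing: they were 279 and 245 with DESeq2 size factors, 317 and 331 with DESeq2, and 1192 and 536 without mixed droplets. Leaving out the control, doxorubicin or doxorubicin+AMH library gave 391 and 141, 272 and 139, and 413 and 164. Mixed droplets were left out of the lymphocytes only, and every B-like cell was kept. Immunoglobulin genes led the lower side: Iglc2, Iglc1 and Iglc3, near-identical light-chain segments, had no UMI in the lymphocytes and were at least 1133-fold, 857-fold and 677-fold lower. Igkc and the B cell adaptor Bank1, with 1 UMI each in the lymphocytes, differed by -13.13 (-18.43 to -10.64 by counting error of the summed UMIs, edgeR adjusted p = 5.62e-13) and -11.90 (-17.21 to -9.40 by counting error of the summed UMIs, edgeR adjusted p = 1.59e-10). On the higher side stood Ccl5 (at least 78.6-fold), Skap1 (at least 27.3-fold), the calcium-binding S100a4 (at least 18.2-fold) and Xcl1 (at least 14.0-fold), all at 0 UMIs in B-like cells. Of the drug and damage lists, Top2a was higher by 3.35 (1.79 to 5.63 by counting error of the summed UMIs, edgeR adjusted p = 1.13e-04) and H2afx by 1.97 (0.41 to 4.26 by counting error of the summed UMIs, edgeR adjusted p = 0.0444), each with 3 UMIs in B-like cells. Abcb1b and Bcl2l1, with no UMI in B-like cells, were at least 7.86-fold and 1.41-fold higher. The p53 targets Btg2 and Cdkn1a were higher and Plk2 was lower, of 28 tested (4 higher and 1 lower without mixed droplets). Of 19 dissociation stress genes 9 were higher and none lower, among them Fos, Junb and Egr1. Without mixed droplets 7 were higher and 1 lower, and Junb was among the 7 while Fos and Egr1 were not.

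Levels were next set side by side between treatments. For each gene with at least 20 UMIs over the 4 libraries (10037 genes, 6403 without mixed droplets) the summed UMIs of a library's lymphocytes were scaled to counts per 1000000 UMIs (CPM), and log2 ratios were taken after adding 10 CPM, which understates the change of low genes. A ratio of at least 2-fold was counted. In doxorubicin against control 1.94% of genes were at least 2-fold higher and 6.88% at least 2-fold lower. In doxorubicin+AMH against AMH these were 5.7% and 11.1%, in AMH against control 10.2% and 5.46%, and in doxorubicin+AMH against doxorubicin 7.57% and 3.5%. Without mixed droplets the shares higher and lower were, in the same order, 3.22% and 6.23%, 6.33% and 3.25%, 2.98% and 6.62%, and 7.84% and 4.92%, so that the balance turned round in doxorubicin+AMH against AMH and in AMH against control. Within T-like cells alone (8974 genes) 4.68% were at least 2-fold higher and 20.1% lower in doxorubicin against control. T-like sums held 521993, 99109, 447519 and 582815 UMIs, and 326616, 99109, 275557 and 107848 without mixed droplets. Ratios within T-like cells keep these droplets, of which the doxorubicin sum held none, and were not computed without them. The ratios share libraries, so they are given side by side only. Medians over all genes lay between -0.11 and 0.08, with and without mixed droplets, and at -0.20 in doxorubicin against control within T-like cells.

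Summed over all lymphocytes, genes of the T cell receptor and CD3 pathway were lower in the doxorubicin library than in control. Of 17 genes, 15 were below control after doxorubicin, 5 of them at least 2-fold, and 0 were at least 2-fold higher. The shares over all genes were 6.88% and 1.94%. The list median was -0.26. Without mixed droplets the median was -0.42 with 5 at least 2-fold lower. Doxorubicin+AMH stood above doxorubicin in 15 of 17 genes, at a median of 0.73, and in all 17 without mixed droplets, at 0.89. It also stood above AMH, in all 17 genes at a median of 1.66, and in 15 without mixed droplets, at 0.60. Within T-like cells alone, which were 12 of 24 lymphocytes in doxorubicin and 44 of 63 in control, 8 of the genes were above and 9 below control. Their summed level stood at log2 0.17 (0.034 to 0.31) for doxorubicin against control and -0.0043 (-0.14 to 0.14) for doxorubicin+AMH against doxorubicin. T-like cells were gated on a CD3 subunit and a receptor chain, and Cd3g, Trac and Trbc1 of this list are gate genes, so this comparison is set in part by the gate. Over the other 14 genes 5 were above and 9 below control, at a median of -0.15, and the summed level stood at 0.14 (-0.019 to 0.31). All these T-like values keep mixed droplets, which the control and doxorubicin+AMH sums held and the doxorubicin sum did not. How far they depend on these droplets was not tested. Cd3g had 611, 518, 864 and 254 CPM over all lymphocytes and 876, 652, 1218 and 803 CPM without mixed droplets. Skap1 had 951, 860.0, 788 and 242 CPM, or 1233, 1038, 1076 and 792. Trbc1, the other beta-chain constant segment, had 325, 381, 544 and 135 CPM, or 375, 519, 780.0 and 501. The low values of the AMH library were much reduced without mixed droplets: AMH against control was at least 2-fold lower in 14 of 17 genes with them and in 0 without them. It remained below control in 11 of 17 without them, at a median of -0.25.

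**Figure D4:**
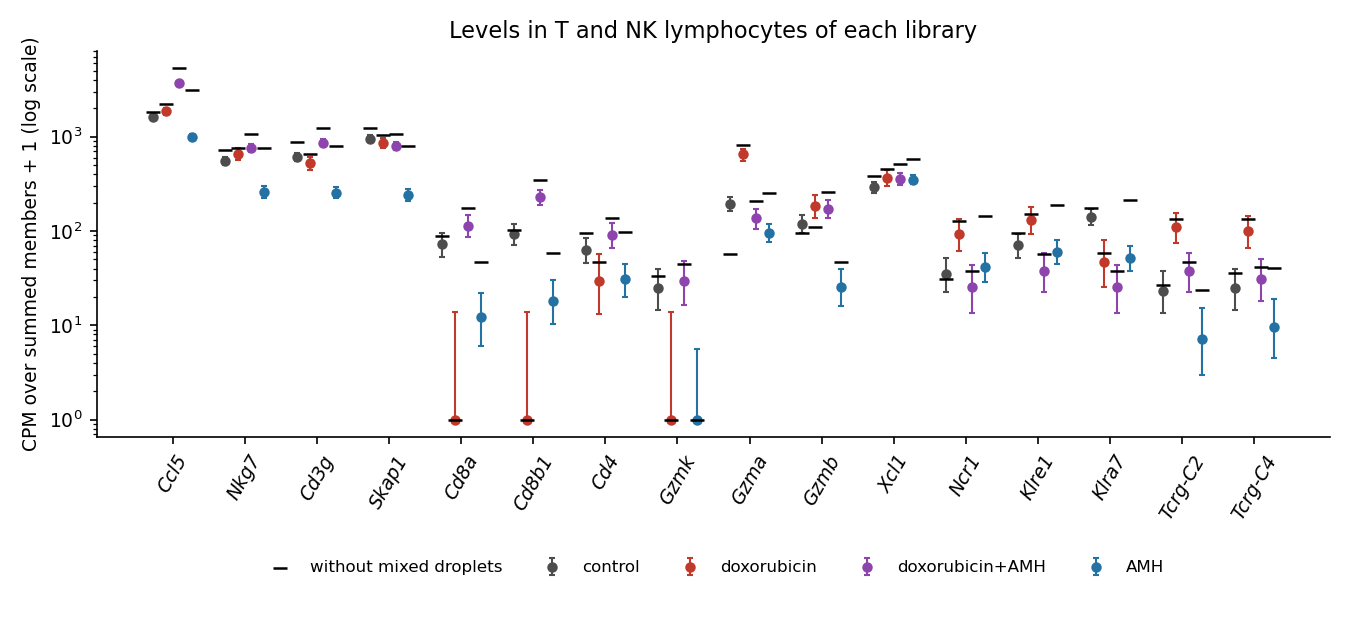
CPM + 1 (log axis) of selected lymphocyte genes summed over the lymphocytes of each library (points, with 95% exact Poisson intervals), and the same without mixed droplets (black dashes). Nkg7 and Gzma are genes of the rule. Cd8a is at 0 UMIs in the doxorubicin library in both, and CD3 genes in the AMH library stand higher once mixed droplets are left out.

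Coreceptor and helper genes, summed over all lymphocytes, were also lower in the doxorubicin than in the control library. Of 13 genes, 5 were at least 2-fold lower and 0 higher after doxorubicin, at a median of -0.76 (-0.82 without mixed droplets). The shares over all genes were 6.88% and 1.94%. In doxorubicin+AMH against doxorubicin 5 were at least 2-fold higher, at a median of 0.79 (0.89), against 7.57% of all genes. Doxorubicin+AMH also stood above AMH, in all 13 genes at a median of 1.39, and in 9 without mixed droplets, at 0.64. Within T-like cells alone 3 of the genes were at least 2-fold higher and 4 lower after doxorubicin, against 4.68% and 20.1% of all genes. The median was -0.08, and the summed level of the list was -0.24 (-0.50 to 0.00087) on the log2 scale. These T-like values keep mixed droplets, of which the doxorubicin sum held none, and were not computed without them. Ctla4, the inhibitory receptor of activated and regulatory T cells, had 294, 123, 519.8 and 72.8 CPM, or 449, 190.3, 681 and 194 without mixed droplets. Icos, a costimulator, had 245, 141, 282 and 123 CPM, or 354, 196, 379 and 382. Ikzf2 (Helios), a factor of regulatory T cells, had 519.8, 335, 391 and 173 CPM, or 795, 449.9, 518 and 473. Each of these was lower in doxorubicin than in control on both counts. Tbx21 (T-bet), the factor of type 1 lymphocytes and NK cells, went the other way at 100.4, 197, 151 and 48.1 CPM, or 132, 242, 200.4 and 125.

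NK receptor genes were higher in the doxorubicin library than in control and lower in doxorubicin+AMH than in doxorubicin. Of 19 genes, 7 were at least 2-fold higher after doxorubicin than in control and 1 lower, at a median of 0.44 (0.59 over 18 genes without mixed droplets). The shares over all genes were 1.94% and 6.88%. In doxorubicin+AMH against doxorubicin 10 of the 19 were at least 2-fold lower and 0 higher, against 3.5% and 7.57% of all genes. The list median was -1.43 (-1.17). Fcer1g had 223, 501, 151 and 178 CPM, or 266, 594, 231 and 433, Tyrobp 247, 338, 80.6 and 119.7, or 257, 496, 123 and 308, and Klrk1 100.4, 261, 44.3 and 37.0, or 125, 254, 61.7 and 96.8. Txk, a TEC kinase, had 162, 190.3, 96.7 and 49.4 CPM, or 195, 213, 126 and 194. Between doxorubicin+AMH and AMH the summed level of the list over all lymphocytes differed by log2 -0.0086 (-0.19 to 0.17), and -0.97 (-1.17 to -0.76) without mixed droplets. These levels are sums over T-like, NK-like and other cells, and the share of cells with NK receptors was also highest in doxorubicin (54.2%) and lowest in doxorubicin+AMH (15.3%). Klra7 (Ly49G) differed from the list, with 95, 13, 12 and 41 UMIs and log2 -1.46 in doxorubicin against control and -2.23 in doxorubicin+AMH against AMH, both without mixed droplets.

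Gamma-chain constant segments were highest in the doxorubicin library. Tcrg-C2 had 15, 31, 18 and 5 UMIs, or 22.2, 109, 36.3 and 6.17 CPM, and 25.5, 133, 46.2 and 22.8 CPM without mixed droplets. Its 31 doxorubicin UMIs came from 8 cells, at most 12 from any. Tcrg-C4 had 16, 28, 15 and 7 UMIs, or 23.6, 98.7, 30.2 and 8.64 CPM, or 34.8, 133, 40.1 and 39.9 without mixed droplets. The log2 ratio of doxorubicin to control was 1.89 (1.37 to 3.30) for Tcrg-C2 and 1.69 (1.13 to 3.05) for Tcrg-C4, where the intervals are for the ratio without the added 10 CPM. Reads may be split between similar constant segments, and alpha-beta T cells can transcribe both genes. Trdc was higher in both AMH libraries than in the other 2, at 18, 4, 36 and 36 UMIs in 6, 3, 3 and 8 cells, or 39.4, 23.1, 92.5 and 194 CPM without mixed droplets. Without these droplets 20 of its 30 doxorubicin+AMH UMIs came from 1 of 2 cells, and 12 of 17 control and 12 of 34 AMH UMIs from 1 cell each. Maf, a factor of several T cell lines that macrophages also transcribe, had 177, 289, 254 and 185 CPM, or 220.1, 409.5, 277 and 262 without mixed droplets. Over the 9 genes of the gamma-delta list the counts at least 2-fold higher and lower were 3 and 2 for doxorubicin against control, at a median of -0.37. The shares over all genes were 1.94% and 6.88%.

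Killing genes lay on both sides of the control level. Of 10 cytotoxic granule genes 0 were at least 2-fold higher and 1 lower after doxorubicin, at a median of 0.45 (0.12 without mixed droplets). These counts lie near the shares over all genes, 1.94% and 6.88%. Gzma is a gene of the rule and is not in this list, and its level describes the choice of cells: it was found in 8, 9, 4 and 6 cells, or 6, 5, 4 and 4 outside mixed droplets. Gzmb, granzyme B, had 118, 183, 169 and 24.7 CPM, or 95, 109.6, 259 and 45.6 without mixed droplets. Gzmk, a granzyme of memory CD8 T cells, was in 9, 0, 10 and 0 cells, and the 0 of 24 and 0 of 40 allow shares of up to 12.5% and 7.5%. It was at least 2.23-fold higher in control than in doxorubicin and at least 7.62-fold higher in doxorubicin+AMH than in AMH. Without mixed droplets these bounds were 1.87-fold and 2.53-fold. Srgn (serglycin) had 755, 765, 1018 and 270.3 CPM, or 1031, 1067, 1369 and 877 without mixed droplets, Ctsw 139, 261, 248 and 92.6, or 183, 271, 336 and 245, and the lysosomal Lamp1 106, 95.2, 74.5 and 160.4, or 76.5, 57.7, 30.8 and 68.4.

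Ccl5 had 1593, 1854, 3709 and 982 CPM over all lymphocytes and 1839.7, 2221, 5287 and 3099 CPM without mixed droplets, highest in doxorubicin+AMH on both counts. It was carried by similar shares of cells, 73.0%, 70.8%, 76.3% and 77.5%. Xcl1 lay between 288 and 363 CPM in the 4 libraries (382, 456, 509 and 575 without mixed droplets), although 160 of its 283 AMH UMIs came from 1 droplet. Ltb, lymphotoxin beta, had 446, 201, 608 and 170.3 CPM, or 614, 277, 857 and 615, lowest in doxorubicin without mixed droplets. Ccl4 had 247, 299.6, 276 and 317 CPM, or 382, 461, 274 and 125, and 196 of its 257 AMH UMIs came from 1 droplet. Of 10 genes of this list 1 and 2 were at least 2-fold higher and lower in doxorubicin against control, against 1.94% and 6.88% of all genes. In doxorubicin+AMH against AMH 5 and 0 were (3 and 0 without mixed droplets), against 5.7% and 11.1% of all genes (6.33% and 3.25%). Il4 and Ccl1 were each the product of few cells: all 64 Ccl1 UMIs came from 1 control cell and 22 of 28 doxorubicin+AMH Il4 UMIs from 1 cell.

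Markers of residence and of recirculation were both present. Cxcr6, a chemokine receptor of tissue-resident lymphocytes, was in 23, 12, 34 and 19 cells (36.5%, 50%, 57.6% and 47.5%). S1pr1, the sphingosine receptor of tissue exit, had 63.5, 31.7, 28.2 and 19.7 CPM, or 95, 46.1, 43.2 and 28.5 without mixed droplets, and Ccr7, the lymph node homing receptor, 19.2, 21.1, 18.1 and 1.23, or 30.1, 34.6, 27.7 and 0. The intervals of control (24.7% to 49.6%) and doxorubicin+AMH (44.1% to 70.4%) overlapped for Cxcr6. Of 10 chemokine and sphingosine receptor genes 3 were at least 2-fold lower and 0 higher in doxorubicin against control, against 6.88% and 1.94% of all genes. Ccr2 had 96.0, 113, 111 and 46.9 CPM, or 116, 144, 145 and 137 without mixed droplets, and Gpr183, a receptor for oxysterols, 96.0, 63.4, 80.6 and 53.1, or 134, 92.3, 114 and 211. Tissue residence genes, led by the immediate early receptors Nr4a1, Nr4a2 and Nr4a3 and by Crem, had none of 11 past 2-fold after doxorubicin, at a median of 0.15 (0.23). Nr4a1 had 236, 377, 395 and 515 CPM, or 199, 329, 216 and 262 without mixed droplets.

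Among naive and memory genes 1 of 13 was at least 2-fold lower and 0 higher after doxorubicin, near the shares over all genes, 6.88% and 1.94%. S100a4, a gene of effector and memory cells, had 465, 430.0, 739 and 219.7 CPM, or 637, 242, 1079 and 706, lowest in doxorubicin once the mixed droplets, 1 of which held 74 of its 122 UMIs there, were left out. S100a10 had 842, 627, 991 and 543 CPM, or 1079.7, 773, 1165 and 889 without mixed droplets. Foxp1 had 635, 370.1, 330.4 and 457, or 639, 346, 358 and 291, and Itgb1 456, 489.9, 540.0 and 321, or 535, 658, 598 and 444. Among inhibitory receptors 4 of 8 were at least 2-fold lower after doxorubicin, at a median of -0.68 (-0.48), against 6.88% of all genes. In doxorubicin+AMH against doxorubicin 4 were at least 2-fold higher, against 7.57% of all genes. Pdcd1 (PD-1) had 44, 7, 62 and 27 UMIs and 92.7, 23.1, 176 and 137 CPM without mixed droplets. Tox, a factor of persistent stimulation, stayed within 475 to 592 CPM without mixed droplets. Cd160 and Cd96 had 48, 31, 39 and 16 and 24, 9, 24 and 13 UMIs. Of 7 genes of type 2 innate lymphoid cells, led by Rora, Il7r, Il18r1 and Areg, 1 was at least 2-fold higher and 1 lower. Rora had 378, 183, 397 and 466 CPM, or 225, 115, 336 and 393 without mixed droplets.

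Targets of p53, the transcription factor switched on by DNA damage, passed 2-fold about as often as all genes did in the lymphocytes of either doxorubicin library, so their counts say nothing particular to them. Of 21 measured targets 9 were above and 12 below control after doxorubicin, 0 at least 2-fold higher and 1 lower, at a median of -0.03 against -0.11 for all genes, of which 1.94% were at least 2-fold higher and 6.88% lower. In doxorubicin+AMH against AMH 14 were above and 7 below, 2 at least 2-fold higher and 1 lower, at 0.12 against -0.04 for all genes, of which 5.7% and 11.1% passed. Within T-like cells alone 8 of 20 were above and 12 below control after doxorubicin, 0 at least 2-fold higher and 5 lower. The median was -0.49 against -0.20 for all genes, of which 20.1% were at least 2-fold lower there. These T-like values keep mixed droplets in control, where the doxorubicin sum held none, and were not computed without them. Over all lymphocytes the summed level of the list was -0.07 (-0.26 to 0.11) and 0.14 (0.0028 to 0.28) on the log2 scale in these 2 ratios, and 0.19 (-0.043 to 0.42) and 0.04 (-0.18 to 0.27) without mixed droplets. Cdkn1a, the p21 inhibitor of the cell cycle, had 34, 22, 31 and 64 UMIs, a log2 ratio of 0.54 (-0.22 to 1.44) in doxorubicin against control and -0.30 (-1.01 to 0.30) in doxorubicin+AMH against AMH. Without mixed droplets these were 0.98 and -0.98, opposite in direction and on 16 to 21 UMIs per library. Mdm2, the ligase that degrades p53, had 37, 16, 28 and 39 UMIs and log2 0.04 and 0.19. Bax, a pore former of mitochondrial death, had 80, 36, 56 and 88 UMIs and 0.10 and 0.05. Btg2, an antiproliferative gene that is also an immediate early gene, had 326, 135, 301 and 450 UMIs and -0.02 and 0.12, and Ccng1 (cyclin G1) had 33, 14, 20 and 19 UMIs. The other targets counted, Phlda3, Trp53inp1, Sesn2, Sesn1, Aen, Ei24, Fas, Pmaip1, Plk2, Rrm2b, Xpc, Polk, Ddb2, Ckap2, Ephx1 and Tap1, ranged from -1.09 (Ei24) to 0.67 (Plk2) in doxorubicin against control.

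Counts of other genes on the path of the drug also lay near those of all genes, of which 1.94% were at least 2-fold higher and 6.88% lower after doxorubicin. Of 9 transport and target genes none was at least 2-fold higher or lower after doxorubicin, at a median of 0.12. Of the topoisomerases, Top1 had 307, 222, 318 and 379 CPM, or 259, 144, 299 and 353 without mixed droplets, Top2a 263, 381, 361 and 104, or 396, 398, 240.5 and 188, and Top2b 103, 91.6, 139 and 101, or 123, 63.4, 173 and 131. Top1 was lowest in doxorubicin on both counts. Abcb1b, the drug pump, had 261, 211, 193 and 112, or 310.5, 294, 284 and 387. DNA damage genes had 1 of 19 at least 2-fold higher and 1 lower, at 0.09. H2afx had 96.0, 102, 139 and 60.5 CPM, or 114, 121, 133 and 51.3 without mixed droplets, and Trp53 91.6, 127, 88.7 and 54.3, or 90.4, 133, 89.4 and 74.1. Rad50 had 81.2, 67.0, 76.6 and 51.8, or 78.8, 57.7, 86.3 and 62.7, and Parp1 66.5, 81.1, 28.2 and 66.6, or 62.6, 98.1, 21.6 and 39.9. Death and survival genes had none of 15 past 2-fold after doxorubicin, at -0.17. Mcl1 had 244, 141, 341 and 195 CPM, or 243, 196, 364 and 245 without mixed droplets, lowest in doxorubicin on both counts. Bcl2 had 216, 282, 135 and 114, or 243, 363, 173 and 256, highest there on both. Bcl2l11 (Bim) had 115, 187, 165 and 115, or 125, 254, 231 and 256, and Bcl2a1b 112, 159, 199 and 62.9, or 158, 225, 231 and 256.

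**Figure D5:**
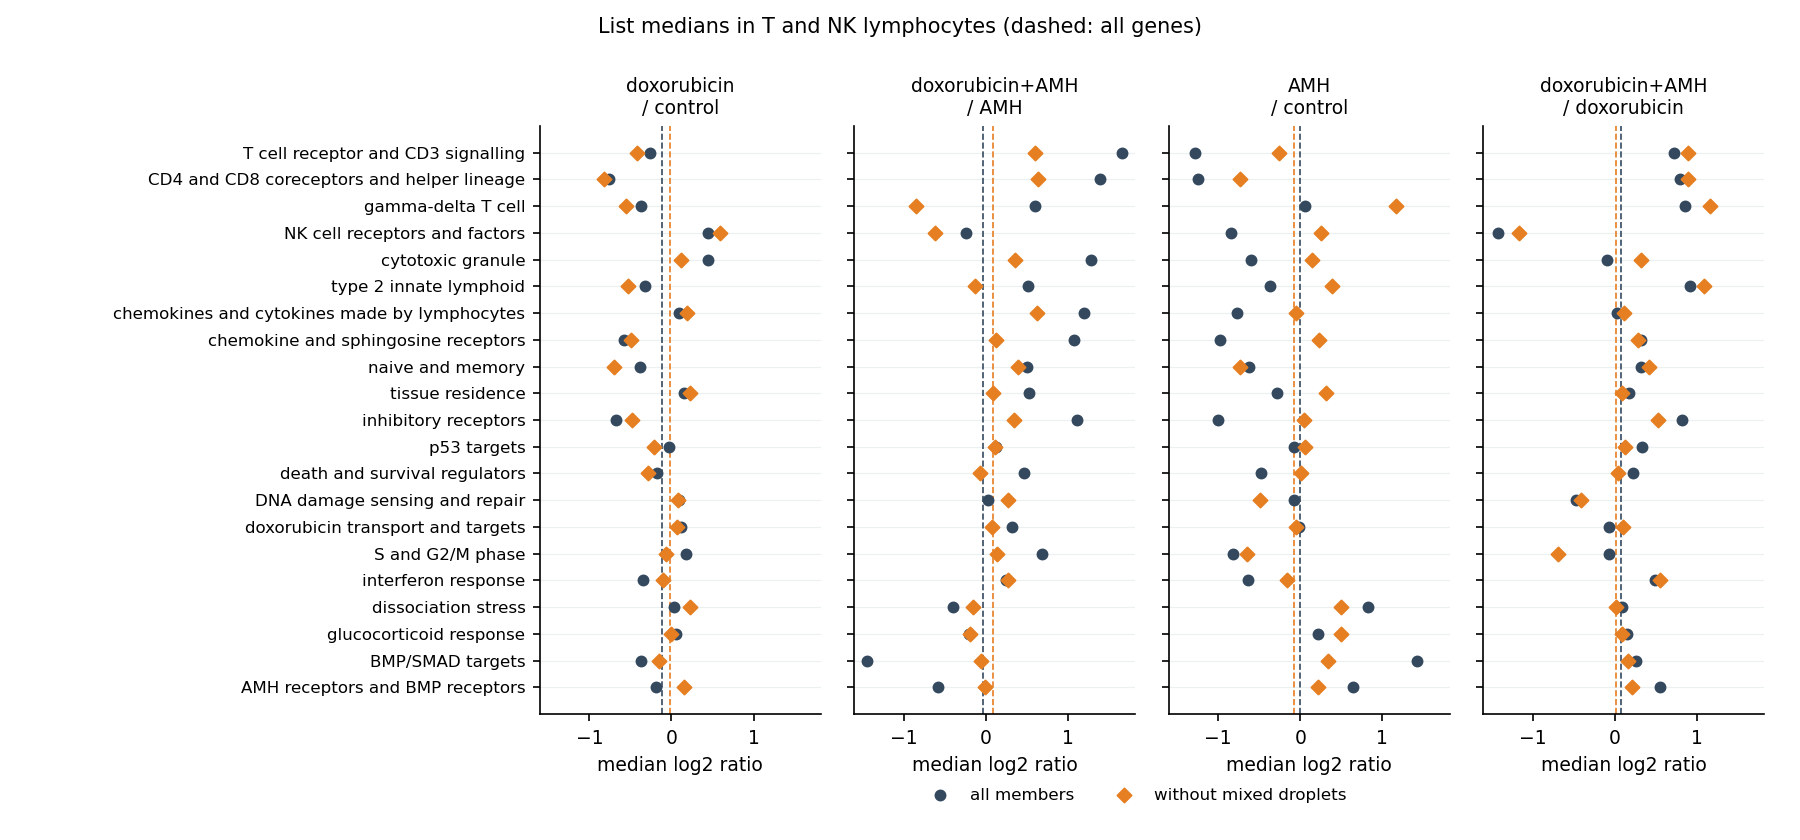
Median log2 ratio of each gene list in the 4 ratios between libraries, for all lymphocytes and without mixed droplets, with the median of all genes as a line. The receptor pathway list lies below 0 and the NK receptor list above 0 in doxorubicin against control on both counts, and p53 targets lie at -0.03 and -0.21.

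Transcripts of Mki67, a protein of dividing cells, or Top2a were found in every library. Mki67 or Top2a had a UMI in 21 of 63, 8 of 24, 26 of 59 and 18 of 40 lymphocytes, or 33.3%, 33.3%, 44.1% and 45%. After thinning each cell to 1000 UMIs the shares were 13.7%, 15.2%, 17.4% and 13.7%. Among cells outside mixed droplets, 18 of 53, 6 of 20, 22 of 53 and 9 of 27 had Mki67 or Top2a, and these were 20 of the 25 cells with over 10000 UMIs and 35 of the 128 shallower ones. The share thus moved with depth, and since no background share was measured for these genes, a UMI of either is not read as a cycling cell. Of 27 S and G2/M phase genes 2 were at least 2-fold higher and 2 lower in doxorubicin against control, against 1.94% and 6.88% of all genes. The list median was 0.17 (-0.07 without mixed droplets). In AMH against control 8 were at least 2-fold lower, at a median of -0.82 (-0.65), against 5.46% of all genes. Hmgb2 had 1406, 1371, 1493 and 619 CPM, or 1949, 1673, 1776 and 1174 without mixed droplets, Stmn1 379.5, 539, 443 and 274, or 454, 548, 318 and 308, and Tubb4b 189, 187, 195 and 243, or 232, 167, 191 and 114, the last with 77 of its 197 AMH UMIs in 1 droplet.

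Interferon response genes were lower in the doxorubicin library in 14 of 19 cases, 4 of them at least 2-fold, at a median of -0.35 (-0.10 without mixed droplets). The share of all genes at least 2-fold lower was 6.88%. Ifi27l2a, a T-like gene above, had 818, 363, 1191 and 318 CPM, or 1196, 502, 1526 and 894 without mixed droplets, lowest in doxorubicin there. Bst2 had 229, 222, 280.1 and 247, or 162, 173, 203 and 131. Ifitm2 and Ifitm3 came mostly from mixed droplets, and their UMIs were 94, 67, 78 and 227 and 73, 35, 79 and 272 with them and 10, 4, 16 and 6 and 7, 1, 9 and 5 without.

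Genes that respond to tissue dissociation were higher in the AMH library than in control. Of 19 genes 7 were at least 2-fold higher in AMH than in control and none lower, at a median of 0.82. The shares over all genes were 10.2% and 5.46%. Without mixed droplets 2 of the 19 were at least 2-fold higher, against 2.98% of all genes, at a median of 0.49, and 17 stayed above 0. Fos, an immediate early gene, had 1031, 1093, 864 and 2139 CPM over all lymphocytes and 380.0, 323, 333 and 615 without mixed droplets, and Junb 1351, 1741, 1838 and 1456, or 1299.8, 2134, 2063 and 2005. Of the chaperones, Hsp90ab1 had 1797, 2076, 1973 and 2605, or 1687, 2088, 1505 and 1681, and Hspa8 916, 1262, 1026 and 1166, or 871, 1246, 1011 and 877. For doxorubicin against control the median was 0.03 (0.22) and 0 genes passed 2-fold in all lymphocytes. The summed level of the list against control was 0.65 (0.61 to 0.70) for AMH and 0.10 (0.036 to 0.16) for doxorubicin on the log2 scale, and without mixed droplets 0.33 (0.24 to 0.42) and 0.34 (0.25 to 0.43). Glucocorticoid response genes had 1 of 9 at least 2-fold higher after doxorubicin, Zbtb16 (PLZF), a factor of innate-like T cells, with 27, 30, 32 and 39 UMIs and a log2 ratio of 1.21 (0.61 to 2.21). Dusp1, Fkbp5 and Tsc22d3, with 195, 85, 158 and 273, 58, 14, 31 and 61, and 30, 19, 20 and 39 UMIs, did not pass 2-fold. The share of all genes at least 2-fold higher after doxorubicin was 1.94%.

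Lymphocytes held little of the AMH receptor itself. Amhr2, the AMH type 2 receptor, had 6, 2, 18 and 39 UMIs, and 4, 0, 1 and 2 without mixed droplets, against a UMI in 85.9% of granulosa-like cells. Bmpr1b, a BMP type 1 receptor, likewise had 6, 5, 33 and 95 and 4, 0, 4 and 2 UMIs. The receptor genes with most UMIs were Tgfbr2 (106, 43, 87 and 80), Bmpr2 (20, 10, 39 and 112), Tgfbr1 (55, 17, 44 and 62) and the shared mediator Smad4 (46, 16, 39 and 60). Of 7 BMP/SMAD target genes 4 were at least 2-fold higher in AMH against control, at a median of 1.42, against 10.2% of all genes. In doxorubicin+AMH against AMH 5 were at least 2-fold lower, against 11.1% of all genes. Without mixed droplets 3 of the 7 had enough UMIs and none passed 2-fold in either ratio, at medians of 0.34 and -0.05. Id3 had 57, 13, 62 and 290 UMIs with mixed droplets and 17, 6, 26 and 13 without, Id1 20, 9, 16 and 89 and 6, 4, 5 and 2. Id2, a factor that NK and innate lymphoid cells need, had 233, 211, 228 and 267 CPM, or 241, 265, 296 and 308 without mixed droplets, and Smad7 121, 67.0, 113 and 106, or 132, 98.1, 111 and 119.6.

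The genes whose ratio to the matching library without doxorubicin was farthest from 0 in the same direction in both pairs were named by a fixed rule. On the higher side were Tcrg-C2 (1.89 in doxorubicin against control and 1.52 in doxorubicin+AMH against AMH), Btk, Rrm2 (1.43 and 1.15), a ribonucleotide reductase subunit that stood at -1.02 for doxorubicin against control in T-like cells alone, Spc24 (1.16 and 1.27), a kinetochore subunit, and Tcrg-C4 (1.69 and 1.11). Of 34 Btk UMIs in doxorubicin+AMH all came from 1 cell. Without mixed droplets Tcrg-C4 stood at 1.67 and 0.0059, and Btk had no UMI in control, doxorubicin+AMH or AMH. Tcrg-C2 stood at 2.01 and 0.78, Spc24 at 1.08 and 0.29 and Rrm2 at 0.57 and -0.11. On the lower side were Ovgp1, the oviduct glycoprotein, Grm7, Pde10a, 9530026P05Rik and A2ml1. Ovgp1 and A2ml1 had no UMI in doxorubicin and were at least 7.54-fold and 3.35-fold higher in control, and the other 3 stood at -2.76, -2.52, and -2.32. Their UMIs lay in few mixed droplets, 174 of 290 AMH Ovgp1 UMIs in 1. Without these droplets all 5 were at 0 UMIs in doxorubicin and at no more than 16.2 CPM (Ovgp1) in control.

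The same rule without mixed droplets named, on the higher side, Gzmc, a granzyme (2.08 and 1.18, with 22 of 25 doxorubicin+AMH UMIs in 1 cell), the chemokine Ccl3 (1.11 and 1.67, with 12 of 15 doxorubicin UMIs in 1 cell, and -1.45 for doxorubicin against control in T-like cells alone), Cables1 (1.08 and 1.07), 1700016P03Rik (1.18 and 1.23) and 1810030O07Rik (1.03 and 2.13). On the lower side it named Prickle1 (0 UMIs in doxorubicin, at least 2.01-fold higher in control, and -1.56), Klra7, Cradd, a caspase-2 adaptor (-1.93 and -1.15), the cationic amino acid carrier Slc7a1 (-1.16 and -1.11) and the corepressor Sin3a (-1.05 and -1.15). Cradd was the product of many cells: its 31, 2, 9 and 13 UMIs came from 19, 2, 7 and 9 cells. Sin3a was too, with 20, 3, 9 and 13 UMIs in 18, 3, 6 and 10 cells.

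For AMH the rule over all lymphocytes named genes of lymphocytes and of other ovarian cells. Higher in AMH against control and in doxorubicin+AMH against doxorubicin were Ank3 (4.01 and 2.53), Igfbp3, Gm35533, Gsn and Ebf1, and lower were Bpifb4, Gramd1b, Cyp17a1, Il12rb2 and Cyp11a1. Most of the higher genes rested on mixed droplets. Without these Ank3 had 2.32, 0, 18.5 and 39.9 CPM, Gsn had 16.2, 23.1, 24.7 and 22.8 CPM with ratios of 0.32 and 0.07, Igfbp3 and Ebf1 had at most 5.70 and 6.17 CPM in any library, and Gm35533 had no UMI in AMH or doxorubicin. Gsn turned to -2.87 for doxorubicin+AMH against doxorubicin in NK-like cells. Of the lower genes Bpifb4 had, without mixed droplets, no UMI in any library and Cyp11a1 had 34.8, 46.1, 3.08 and 0 CPM. Cyp17a1 and Cyp11a1 are steroid enzymes of theca cells, and 162 of 204 and 250 of 321 control UMIs came from 1 droplet each. Without the highest Scrublet scores they turned to 2.86 and 1.51 in AMH against control, and Cyp17a1 stood at 0.021 for doxorubicin+AMH against doxorubicin in cells of at most 10% mitochondrial UMIs. Gramd1b was found in 41, 14, 28 and 22 lymphocytes, and without mixed droplets its ratios went from -1.71 and -1.76 to -0.56 and -0.12, and the second was 0.061 in T-like cells alone. Il12rb2, the interleukin 12 receptor beta 2 chain of type 1 T and NK cells, had 88, 83, 41 and 28 UMIs in 24, 16, 18 and 14 cells, at -1.65 and -1.71, and -0.41 and -1.66 without mixed droplets. In NK-like cells alone its ratios were 0.078 and 0.96. Without mixed droplets the rule named, on the higher side, Prickle1 (1.97, and at least 2.85-fold higher in doxorubicin+AMH than in doxorubicin), Trdc (2.04 and 1.63, resting on few cells as given above), Bex4 (1.60 and 1.40), the lysosomal protease Ctsl (1.72 and 1.39) and the vesicle regulator Rab27b (1.35 and 1.80). On the lower side it named the mitochondrial gene Etfa (-1.40 and -1.40), the silencing factor Tasor, Noc2l, and Phgdh, the entry enzyme of serine synthesis (-1.15 and -1.28). Bex4 UMIs came from 13, 6, 31 and 15 cells and Ctsl UMIs from 21, 9, 35 and 19, so neither rested on few cells.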

How the data were processed

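Whole ovaries were profiled with 10x Genomics 3' v3.1 chemistry in 1 library per group (5 pooled animals). The deposited values are UMI counts per gene and cell, made with Cell Ranger 7.0.0 per the file headers, on build mm10 per the submitters' processing notes. Those notes also name R 4.2.0 and Seurat 4.1.0, whose role is not given in the sources used here. Counts were read in Python 3.11.15 with scanpy 1.11.5. Doublets were scored with Scrublet and kept. Scrublet's own limit marked 349, 6, 0 and 0 cells, so cells were ranked by score at an assumed rate of 0.8% per 1000 cells. UMIs were summed per library and class and tested with edgeR 4.0.16 in R 4.3.3 (quasi-likelihood, TMM, library block, at least 20 UMIs over the sums, Benjamini-Hochberg over all genes), with DESeq2 1.42.0 as an alternative. The tests were checked on simulated data. The library block pairs classes from the same pooled animals. Named genes were, per list, the 4 with most UMIs (all p53 targets with at least 20 UMIs), per fit the 5 or 10 with the largest fold each way, in the same direction in 4 libraries, and per treatment the 5 farthest from 0 each way with at least 40 UMIs. Leaving out mixed droplets, leaving gate genes out of the receptor list within T-like cells, and dropping the planned 10-cell minimum were chosen after the data were seen. Mixed droplets were called and left out among the lymphocytes only. The members and gene lists were chosen with earlier results of these data known. A cell's subset follows detected transcripts, so shallow cells can be misplaced. Sequences come from RefSeq (GRCm38.p6); 4 of the 6 genes of the rule had an entry. Some genes that the naming rule covers are not reported here.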

Additional observations from a re-analysis of the deposited data

Results flagged for a closer look

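In 6 genes the doxorubicin library lay below control while the doxorubicin+AMH library lay above AMH, each at least 2-fold on the log2(CPM + 10) scale with and without mixed droplets; each side is 1 library, and the difference between the pairs was not tested. These were 6 of 279 listed genes searched (2.15%), against 13 of 10037 genes overall (0.130%), and 0 listed genes and 1 gene overall showed the opposite pattern. T-like cells were 50% of the lymphocytes in doxorubicin against 69.8% in control, and 84.7% in doxorubicin+AMH against 65.0% in AMH, so the share of T-like cells moved in the same directions; its part in these ratios was not tested. The log2 ratios were -1.49 and 2.35 for Cd2, an adhesion receptor of T and NK cells, -1.19 and 2.68 for Ctla4, and -1.27 and 1.13 for Tigit, an inhibitory receptor. Without mixed droplets, which held 78.3% of the AMH UMIs, they were -1.77 and 1.11 for Cd2, -1.20 and 1.76 for Ctla4, and -1.84 and 1.14 for Tigit. Cd8a and Cd8b1 had no UMI in doxorubicin, so they were at least 6.70-fold and 8.66-fold higher in control, and their log2 ratios of doxorubicin+AMH to AMH were 2.54 and 3.12; without mixed droplets the bounds were 5.09-fold and 5.89-fold and the ratios 1.72 and 2.42. Gzmk had no UMI in doxorubicin or AMH and was at least 2.23-fold higher in control than in doxorubicin and at least 7.62-fold higher in doxorubicin+AMH than in AMH; without mixed droplets these bounds were 1.87-fold and 2.53-fold. Cd2 was found in 43, 10, 43 and 21 cells and Tigit in 16, 2, 13 and 5, so the values did not rest on single cells. The 2 treatments' ratios share no library.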

How the results depend on the processing

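Of the values recomputed for shares, gene counts and the medians of the p53 and dissociation stress lists, 147 kept their size and 51 moved. A second set held named gene ratios and the medians of the interferon response, S and G2/M phase, receptor pathway and cytotoxic granule lists. In it 743 kept their size, 205 moved and 10 reversed. The AMH share was 0.316% without mixed droplets. The p53 median was -0.49 in T-like cells (doxorubicin/control), 0.27 without the highest Scrublet scores (doxorubicin+AMH/AMH), 0.085 at 5 UMIs or more (AMH/control), and -0.11 at 50 UMIs or more and 0.12 without mixed droplets (doxorubicin+AMH/doxorubicin). The dissociation stress median for doxorubicin/control was 0.20 with cells weighted equally, 0.12 with median-of-ratios scaling, -0.23 in T-like and -0.48 in NK-like cells, and 0.22 both without high Scrublet scores and without mixed droplets. In the order equal weights, T-like, NK-like, without high Scrublet scores and without mixed droplets, it was -0.13, -0.45, -0.65, -0.32 and -0.16 for doxorubicin+AMH/AMH, 0.45, 0.91, 0.27, 1.18 and 0.49 for AMH/control (0.77 with a pseudocount of 20 CPM) and -0.024, 0.43, -0.35, 0.37 and 0.016 for doxorubicin+AMH/doxorubicin. Reversed ratios were those of Rrm2 (-1.02 for doxorubicin/control in T-like cells, -0.11 for doxorubicin+AMH/AMH without mixed droplets), Ccl3 (-1.45, doxorubicin/control, T-like), Gsn (-2.87, doxorubicin+AMH/doxorubicin, NK-like), Gramd1b (0.061, the same ratio, T-like), Cyp17a1 (2.86 for AMH/control without high Scrublet scores, 0.021 for doxorubicin+AMH/doxorubicin at 10% mitochondrial UMIs), Cyp11a1 (1.51, AMH/control, without high Scrublet scores) and Il12rb2 (NK-like, 0.078 in AMH/control, 0.96 in doxorubicin+AMH/doxorubicin). Counts higher and lower against macrophages were 537 to 1160 and 992 to 1627 leaving out each library (561 and 992 without control), and 1931 and 2969 without mixed droplets. Against B cells they were 272 to 760 and 139 to 238 leaving out each library (272 without doxorubicin), 279 higher with DESeq2 size factors, 317 and 331 with DESeq2, and 1192 and 536 without mixed droplets. For T-like against NK-like cells they were 27 to 72 and 30 to 34 leaving out each library, 14 and 26 with DESeq2, 3 and 6 with edgeR's filterByExpr, and 11 and 13 with no replicate block; with no replicate block the other comparisons gave 1181 and 1756 against macrophages and 822 and 212 against B cells. The cause was not tested.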
